A study of Mus musculus with 12 samples.

Results

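The genes described here are 9 members of the signalling between salivary epithelium and its nerves: the muscarinic receptors Chrm1 and Chrm3, the neurotrophic ligands Nrtn and Gdnf with their co-receptors Gfra2 and Gfra1 and the shared receptor Ret, and the neuropeptide Vip with its receptor Vipr1. They were listed by name for their role in this exchange, and they are 9 of the 43280 gene symbols counted. All 9 were among the 17030 genes that passed the filter on low counts. In the developing submandibular gland, parasympathetic neurons form a ganglion beside the epithelium and release acetylcholine, which acts on epithelial muscarinic receptors coupled to Gq. Neurturin, the product of Nrtn, is made by the epithelium and acts on the neurons through a receptor complex of Gfra2 and Ret, while Gdnf acts through Gfra1 and Ret. Vasoactive intestinal peptide is released by the same parasympathetic nerves and acts through a Gs-coupled receptor on epithelial cells.

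Total RNA was sequenced from cells of submandibular glands of embryonic day 15 mice of the transgenic strain Tg(KRT5-Venus)1Sgkd, in which the keratin 5 promoter drives the fluorescent protein Venus. All cells had been sorted as positive for E-cadherin with an anti-E-cadherin antibody, then split by an antibody to Kit, a receptor tyrosine kinase, and by Venus. This gave 4 groups of 3 libraries, written Kit+K5+, Kit+K5- (no Venus), Kit-K5+ (no Kit) and Kit-K5- (neither). The transgene and the E-cadherin gate were shared by all 4, so that none is an unsorted or nerve-free control. How many embryos went into a library is not stated in those labels. As nothing says that the 3 libraries of a group came from separate litters, p-values measure the spread between these samples only, which may be technical.

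Library totals ran between 5589037 and 13724364 counts. Levels of a gene are given as CPM, its counts scaled to the size of the library with TMM factors, and levels of different genes are compared only as RPKM, which also divides by exon length. The Kit transcript averaged 318 CPM (Kit+K5+) and 341 CPM (Kit+K5-) in the Kit+ sorts, against 22.3 CPM (Kit-K5+) and 14.6 CPM (Kit-K5-) in the Kit- sorts. Krt5, the gene of keratin 5, averaged 18.8 CPM in Kit-K5+ cells against 4.18 CPM in Kit-K5- cells, but 5.24 CPM in Kit+K5+ cells against 2.42 CPM in Kit+K5- cells, and neither difference by Venus passed the test (adjusted p = 0.0964 for Kit-K5+ against Kit-K5-, and 0.0142 with the runs of library numbers as a block). The Kit-K5- libraries stood apart in makeup. Cdh1, which encodes E-cadherin, averaged 585 to 797 CPM in the other groups, against 173 CPM in Kit-K5- cells, and mitochondrial transcripts took 10.96% to 30.9% of the counts of the other groups, against 5.59% to 12.2% in Kit-K5- cells. The summed level of 14 parasympathetic neuron markers was 6.80 to 24.0 CPM in the other 9 libraries, against 106 to 253 CPM in Kit-K5- cells. The 12 mesenchyme markers summed to 382 to 836 CPM in the other libraries and 10683 to 17659 CPM in Kit-K5- cells, and the 19 general epithelial genes to 1164 to 2319 CPM in the other libraries and 343 to 445 CPM in Kit-K5- cells. Replicate 1 of Kit+K5- also stood apart, with a sum of 8 mast cell markers of 4943 CPM, against 2.74 to 224 CPM in the other 11 libraries. Every comparison with Kit-K5- cells below therefore also compares cells with different levels of these markers. Their part in the results was not tested, and in such bulk samples fewer cells of a type and less RNA per cell cannot be told apart.

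Most of the differences lay between Kit-K5- cells and each of the other groups. Among Kit- cells, Kit-K5+ differed from Kit-K5- in 4 of the 9 genes, with Chrm1 and Chrm3 higher and Gfra2 and Ret lower, where 16.5% of all genes tested were called (7.38% higher and 9.1% lower). Among K5- cells, Kit+K5- differed from Kit-K5- in 5 of the 9, the same 4 genes and Gfra1, where 21.3% of all genes were called (10.2% higher and 11.1% lower). Kit+K5+ differed from Kit-K5- in 4 of the 9, with Chrm3 higher and Gfra1, Gfra2 and Ret lower, where 26.7% of all genes were called (12.2% higher and 14.5% lower). These 3 comparisons share their Kit-K5- libraries. The 3 comparisons among the other groups called 0 of the 9. The share of all genes called was 0% for Kit+K5+ against Kit+K5-, 0.658% for Kit+K5+ against Kit-K5+ and 2.67% for Kit+K5- against Kit-K5+. At an unadjusted p under 0.05 these held 0, 2 and 2 of the 9, in that order. At that threshold they held 1161, 3150 and 3176 of the 17030 genes tested. DESeq2 called 0, 1 (Gfra1) and 0 of the 9 there, with 0.699%, 6.1% and 7.92% of all genes, and limma-voom called 0 in each. Calls are at an adjusted p under 0.05 in edgeR's quasi-likelihood test with Benjamini-Hochberg adjustment over all genes tested.

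**Figure D1:**
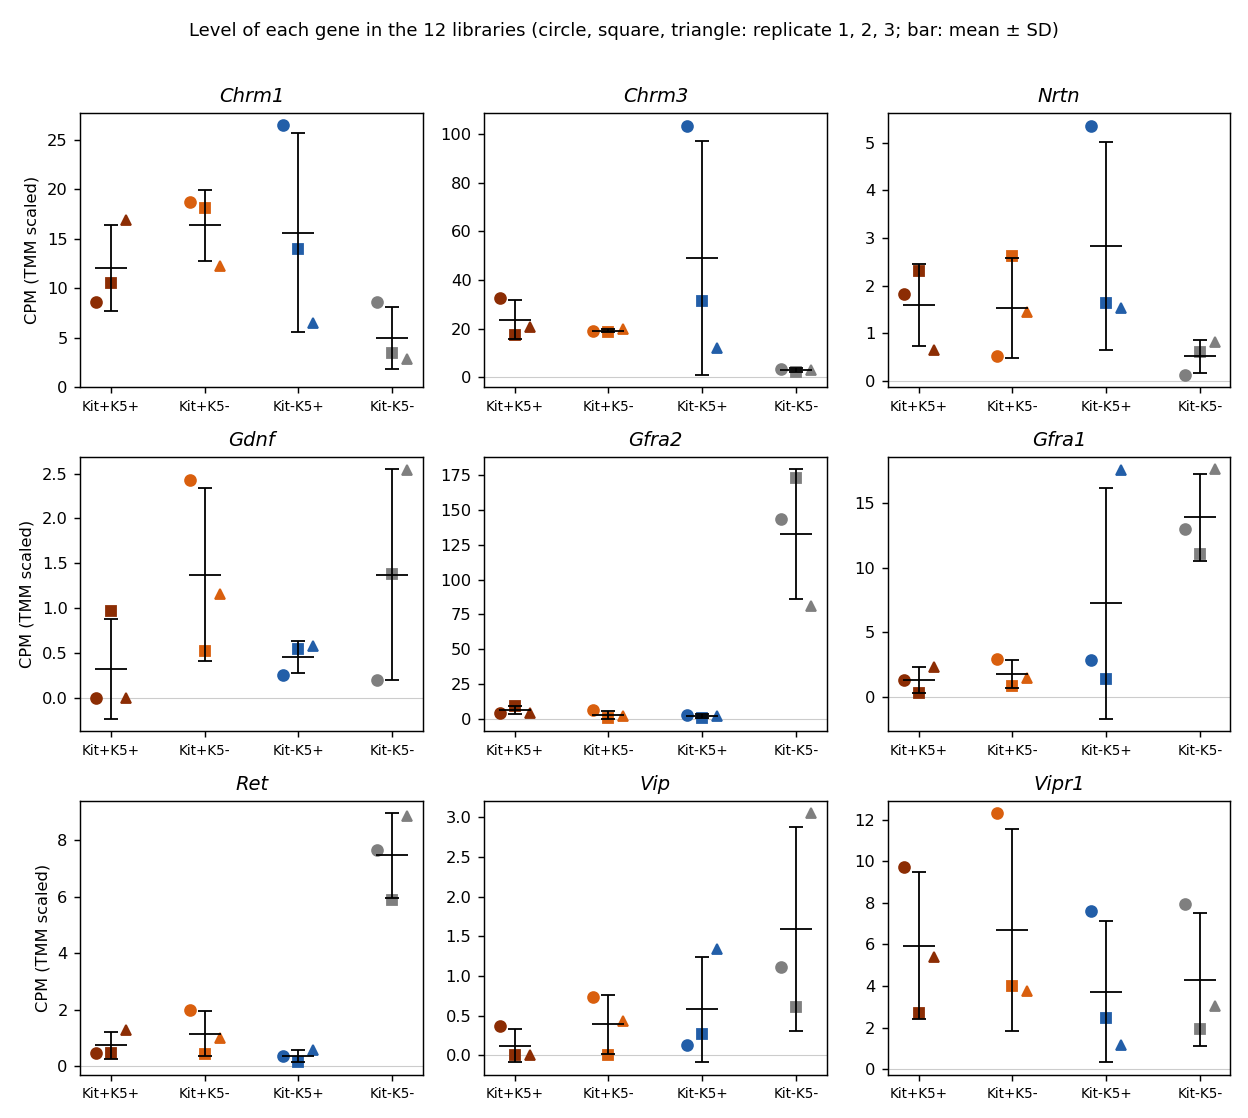
Levels of the 9 genes in CPM (vertical axis) in each library, with a panel for each gene and the Kit+ groups left of the Kit- groups, each with K5+ left of K5-. Circles, squares and triangles are replicates 1, 2 and 3, and bars give the mean ± SD. Gfra2 and Ret are highest in Kit-K5- cells, where Chrm3 is lowest.

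Chrm1 encodes the M1-type muscarinic receptor and lies at chr19:8663789-8683587 on the forward strand (GRCm38, GENCODE M21). Its levels were 8.64, 10.6 and 16.9 CPM for Kit+K5+, 18.7, 18.1 and 12.2 CPM for Kit+K5-, 26.4, 13.96 and 6.48 CPM for Kit-K5+, against 8.56, 3.44 and 2.85 CPM for Kit-K5- cells. The Kit-K5- libraries were the lowest group, but the highest of them overlapped the lowest of the Kit-K5+ libraries. It was not separated among the other 3 groups, whose means were 12.03, 16.3 and 15.6 CPM for Kit+K5+, Kit+K5- and Kit-K5+. Chrm1 was higher in Kit-K5+ cells than among Kit-K5- cells by 1.65 ± 0.53 (log2 ± SE, adjusted p = 0.0475), a 3.14-fold difference. In Kit+K5- cells it was higher than among Kit-K5- cells by 1.71 ± 0.53 (adjusted p = 0.0335), and these libraries did not overlap, as for 20% of all genes. For Kit+K5+ against Kit-K5- the difference was 1.27 ± 0.52 with an adjusted p of 0.0913. With the runs of library numbers as a block that p was 0.0291, and 5 of the 9 genes were called where 34.3% of all genes were. The call of Kit-K5+ against Kit-K5- was also lost in limma-voom (adjusted p = 0.0534) and with only the groups compared (0.0751). All 3 directions turned when libraries were scaled to the 19 general epithelial genes instead, to -0.12, -0.49 and -0.81.

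The Chrm1 calls lay near the threshold. The call of Kit-K5+ against Kit-K5- was lost when any library was left out other than replicate 1 of Kit+K5-, replicate 1 of Kit-K5- or replicate 3 of Kit-K5+, with adjusted p-values between 0.0504 without replicate 3 of Kit+K5+ and 0.216 without replicate 1 of Kit-K5+. Without that last library the difference was 1.03, and without replicate 1 of Kit-K5- it was 2.29. Where the call was lost without a library of the Kit+ groups, which are outside this comparison, the difference was 1.63 or 1.64. The call of Kit+K5- against Kit-K5- was lost without replicate 1 or 2 of Kit+K5- (adjusted p = 0.0689 and 0.0974) and without replicate 2 or 3 of Kit-K5- (0.129 and 0.125). That difference was 2.36 without replicate 1 of Kit-K5-, and the one between Kit+K5+ and Kit-K5- was then 1.93 and passed (adjusted p = 0.0329). The exons of Chrm1 overlap those of Gm22820, a small RNA gene on the opposite strand, over 329 bases, and as the strand setting of the counting is not given, reads there cannot be assigned with certainty.

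Chrm3 encodes the M3-type muscarinic receptor, the main secretory one of salivary glands, and lies at chr13:9875486-10360847 on the reverse strand. Its levels were 32.6, 17.4 and 20.7 CPM for Kit+K5+, 18.9, 18.8 and 19.7 CPM for Kit+K5-, 103.5, 31.5 and 12.2 CPM for Kit-K5+, against 3.53, 2.29 and 3.05 CPM for Kit-K5- cells. Every library of the other 3 groups was above every Kit-K5- library, as for 17%, 20% and 21.4% of all genes in Kit-K5+, Kit+K5- and Kit+K5+ against Kit-K5-, while within Kit-K5+ cells the 3 libraries spread over a wider range than the other groups spanned together. Chrm3 was higher than in Kit-K5- cells by 4.05 ± 0.62 in Kit-K5+ (16.6-fold, adjusted p = 6.70e-04), by 2.69 ± 0.59 in Kit+K5- (6.43-fold, adjusted p = 0.00555) and by 2.99 ± 0.59 in Kit+K5+ cells (7.94-fold, adjusted p = 0.00254). Without replicate 1 of Kit-K5+, at 103.5 CPM, the first difference was 2.88 (adjusted p = 0.00118). Kit+K5+ and Kit-K5+ cells overlapped (difference -1.06 ± 0.54, adjusted p = 0.311), as did Kit+K5- and Kit-K5+ cells (-1.36 ± 0.55, adjusted p = 0.196).

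The K5 difference of Chrm3 was not the same in the Kit+ and the Kit- sorts. The interaction, the K5 difference in Kit+ cells minus that in Kit- cells, was -3.75 ± 0.80 (adjusted p = 0.0171), where 4.02% of all genes were called (2.81% with a positive and 1.21% with a negative interaction) and 2 of the 9, Chrm3 and Gfra2. Markers that set Kit-K5- cells apart had interactions as well. Of the 19 general epithelial genes 5 were called negative and 0 positive (median -1.53). Of the 12 mesenchyme markers 9 were positive and 0 negative (median 5.28), and 0 of the 13 neuron markers measured were called (median 2.65). Their part in the interactions of Chrm3 and Gfra2 was not tested. The Chrm3 interaction was -2.57 without replicate 1 of Kit-K5+ (adjusted p = 0.0271). The call was lost without replicate 2 of Kit+K5+ (adjusted p = 0.0546), without replicate 2 of Kit-K5- (0.0577) and in limma-voom (0.0772). Without library numbers 5 to 8 it was also lost (adjusted p = 0.244), as were the Chrm3 calls of Kit+K5- (0.119) and Kit+K5+ (0.0538) against Kit-K5-. With scaling to the epithelial genes, which moved the median of all genes to -1.67 for Kit-K5+ against Kit-K5-, -2.06 for Kit+K5- against Kit-K5- and -2.15 for Kit+K5+ against Kit-K5-, Chrm3 was still higher by 2.34 in Kit-K5+ cells than among Kit-K5- cells (adjusted p = 0.00205). Under that scaling the difference was 0.58 for Kit+K5- (adjusted p = 0.346) and 0.81 for Kit+K5+ cells (adjusted p = 0.192).

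The ratio of the 2 muscarinic receptors within a library does not depend on scaling. Per exon length, Chrm3 stood to Chrm1 at 3.92, 1.71 and 1.28 in Kit+K5+, 1.04, 1.08 and 1.68 in Kit+K5-, 4.07, 2.34 and 1.95 in Kit-K5+ and 0.428, 0.692 and 1.11 in Kit-K5- cells. All Kit-K5+ libraries lay above all Kit-K5- and all Kit+K5- libraries in this ratio. In RPKM, Chrm3 averaged 7.85 ± 7.70 and Chrm1 2.41 ± 1.55 in Kit-K5+ cells, against 0.473 ± 0.0999 and 0.763 ± 0.484 in Kit-K5- cells (SD, n = 3).

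**Figure D2:**
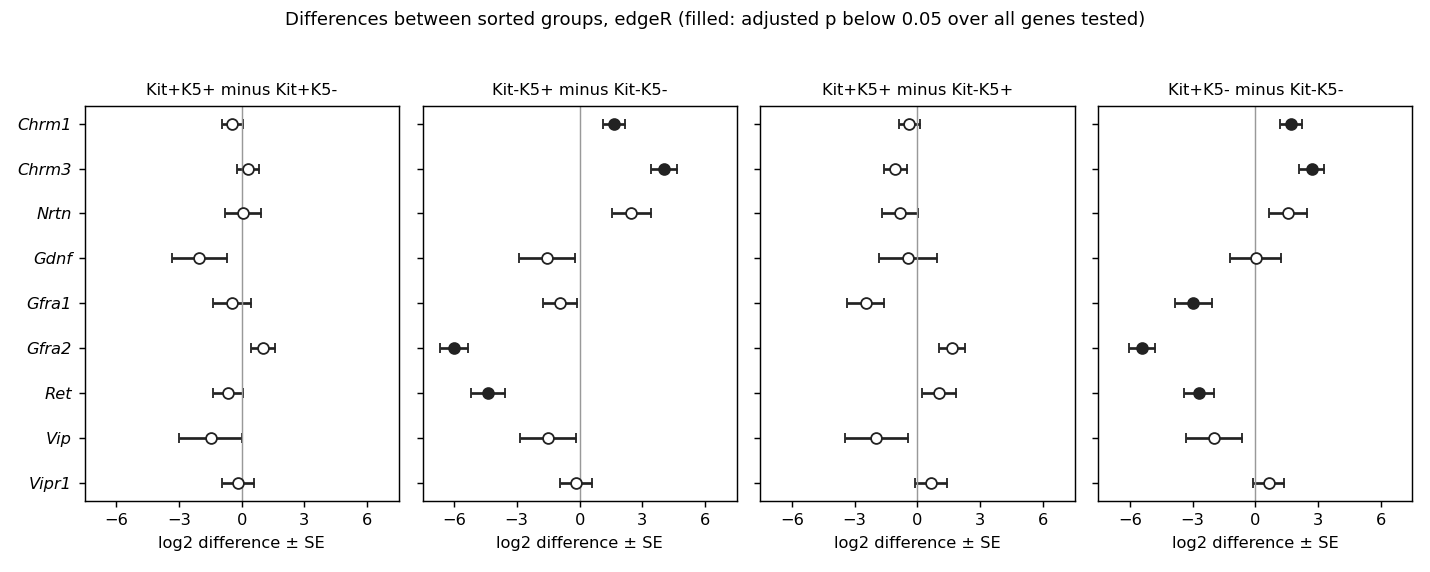
Log2 differences ± SE (horizontal axis) for the 9 genes (vertical axis). Panels show Kit+K5+ minus Kit+K5-, Kit-K5+ minus Kit-K5-, Kit+K5+ minus Kit-K5+ and Kit+K5- minus Kit-K5-. Filled points have an adjusted p under 0.05. Filled points occur only in the comparisons with Kit-K5- cells.

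Nrtn encodes neurturin, the ligand by which the epithelium supports parasympathetic neurons, and lies at chr17:56751325-56757530 on the reverse strand. Its reads were few, numbering 49, 40 and 63 in the Kit+K5+, Kit+K5- and Kit-K5+ groups, against 18 in the Kit-K5- group. Its levels were 1.84, 2.31 and 0.644 CPM for Kit+K5+, 0.527, 2.62 and 1.45 CPM for Kit+K5-, 5.36, 1.64 and 1.53 CPM for Kit-K5+, against 0.131, 0.611 and 0.814 CPM for Kit-K5- cells. The 3 Kit-K5+ libraries lay above the 3 Kit-K5- libraries, as for 17% of all genes, and the other groups overlapped one another. The difference between Kit-K5+ and Kit-K5- cells was 2.46 ± 0.93 and missed the threshold (adjusted p = 0.0869), with an interval between 0.32 and 4.61. DESeq2 gave an adjusted p of 0.0370 for it, and with scaling to the epithelial genes it was 0.84 (adjusted p = 0.457). For Kit+K5- against Kit-K5- the difference was 1.57 ± 0.92 (adjusted p = 0.253) and for Kit+K5+ against Kit-K5- 1.64 ± 0.91 (adjusted p = 0.208).

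Gdnf, the founding ligand of the family, lies at chr15:7810846-7837575 on the forward strand and was near the limit of detection. Its levels were 0, 0.961 and 0 CPM for Kit+K5+, 2.42, 0.525 and 1.16 CPM for Kit+K5-, 0.249, 0.548 and 0.572 CPM for Kit-K5+, against 0.196, 1.37 and 2.54 CPM for Kit-K5- cells. The 2 counts of 0 allow up to 0.276 CPM in replicate 1 and 0.386 CPM in replicate 3 of Kit+K5+, from counting error alone at 3 reads. The groups overlapped, and none of the differences passed, with adjusted p-values of 0.287 or more in the comparisons of groups. Without replicate 2 of Kit+K5+, whose 10 reads are all that this group has, the difference from Kit-K5- cells had an adjusted p of 0.0337. Per exon length the levels of both ligands were low: in Kit-K5+ cells Nrtn averaged 2.78 ± 2.13 RPKM and Gdnf 0.124 ± 0.0489 RPKM, and in Kit-K5- cells they averaged 0.507 ± 0.343 and 0.373 ± 0.320 RPKM (SD, n = 3).

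Gfra2 encodes the co-receptor that binds neurturin and lies at chr14:70890120-70979838 on the forward strand. Its levels were 4.596, 9.61 and 4.64 CPM for Kit+K5+, 6.21, 1.05 and 1.89 CPM for Kit+K5-, 3.12, 0.684 and 2.29 CPM for Kit-K5+, against 143, 172 and 81.3 CPM for Kit-K5- cells. Each Kit-K5- library was above every other library, as for 20.1%, 21.3% and 24.6% of all genes in Kit-K5+, Kit+K5- and Kit+K5+ against Kit-K5-. The reads of this gene numbered 186, 82 and 42 in Kit+K5+, Kit+K5- and Kit-K5+, against 5252 in Kit-K5-. Gfra2 was lower than among Kit-K5- cells in each other group, with log2 differences of -6.02 ± 0.67 in Kit-K5+ (64.8-fold lower, adjusted p = 6.17e-05), -5.42 ± 0.64 in Kit+K5- (42.7-fold lower, adjusted p = 5.95e-05) and -4.39 ± 0.60 in Kit+K5+ cells (20.97-fold lower, adjusted p = 1.70e-04). The interaction of Kit and K5 was 7.04 ± 0.87 (adjusted p = 3.39e-04). These 4 calls were kept in every alternative run. The size of the Kit+K5- difference depended on replicate 1 of that group, at 6.21 CPM, without which it was -6.52 and the interaction 8.16.

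Among the other groups the differences of Gfra2 missed the threshold. All 3 Kit+K5+ libraries were above the 3 Kit-K5+ libraries, as for 10.2% of all genes, and the difference was 1.63 ± 0.62 with an adjusted p of 0.192. For Kit+K5+ against Kit+K5- cells it was 1.03 ± 0.58 (adjusted p = 0.762). Kit+K5- against Kit-K5+ cells gave 0.60 ± 0.64 (adjusted p = 0.665).

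Ret encodes the receptor tyrosine kinase that all ligands of the GDNF family share, and lies at chr6:118151745-118197718 on the reverse strand. Its levels were 0.460, 0.480 and 1.29 CPM for Kit+K5+, 2.001, 0.420 and 1.02 CPM for Kit+K5-, 0.374, 0.137 and 0.572 CPM for Kit-K5+, against 7.65, 5.88 and 8.85 CPM for Kit-K5- cells. As with Gfra2, no other library reached the lowest Kit-K5- library, and the reads numbered 20, 30 and 7 in Kit+K5+, Kit+K5- and Kit-K5+, against 281 in Kit-K5-. Ret was likewise lower, with log2 differences from Kit-K5- cells of -4.36 ± 0.81 in Kit-K5+ (20.6-fold lower, adjusted p = 0.00280), -2.69 ± 0.71 in Kit+K5- (6.43-fold lower, adjusted p = 0.0163) and -3.33 ± 0.74 in Kit+K5+ cells (10.1-fold lower, adjusted p = 0.00510). The last of these, like that of Gfra1 below, lost its call without library numbers 1 to 4 (adjusted p = 0.0508 for Ret and 0.0503 for Gfra1). That of Gfra1 was also lost without numbers 5 to 8 (0.0603). For Kit+K5-, the calls of Ret and Gfra1 were lost without numbers 5 to 8 (0.130 and 0.109) and without 9 to 12 (0.110 and 0.0688). The Kit+K5- difference of Ret lost its call without replicate 2 (adjusted p = 0.0707) or replicate 3 (0.0538) of Kit+K5- and without replicate 1 (0.0557) or replicate 3 (0.0605) of Kit-K5-. It was -3.38 without replicate 1 of Kit+K5-, and that between Kit+K5+ and Kit-K5- was -3.94 without replicate 3 of Kit+K5+. The interaction was 3.72 ± 1.07 and missed the threshold (adjusted p = 0.0747). It passed with the block on runs of library numbers (adjusted p = 0.0320, where 3 of the 9 genes and 8.33% of all genes were called), in DESeq2 (0.0211) and without replicate 1 of Kit+K5- (4.43, adjusted p = 0.0454).

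Gfra1, the co-receptor of Gdnf, lies at chr19:58235604-58455909 on the reverse strand. Its levels were 1.29, 0.288 and 2.32 CPM for Kit+K5+, 2.95, 0.840 and 1.45 CPM for Kit+K5-, 2.87, 1.37 and 17.5 CPM for Kit-K5+, against 13.0, 11.1 and 17.6 CPM for Kit-K5- cells. Both Kit+ groups lay below all Kit-K5- libraries, as for 21.3% of all genes in Kit+K5- and 24.6% in Kit+K5+, while replicate 3 of Kit-K5+ was as high as the Kit-K5- libraries. Gfra1 was lower than among Kit-K5- cells in both Kit+ groups, with log2 differences of -2.98 ± 0.88 in Kit+K5- (7.87-fold lower, adjusted p = 0.0278) and -3.43 ± 0.91 in Kit+K5+ cells (10.8-fold lower, adjusted p = 0.0131). The first of these lost its call without replicate 2 (adjusted p = 0.109) or replicate 3 (0.0805) of Kit+K5- and without replicate 1 (0.0547) or replicate 3 (0.0704) of Kit-K5-, and was -3.60 without replicate 1 of Kit+K5-. The second was -4.10 without replicate 3 of Kit+K5+. Between Kit-K5+ and Kit-K5- cells the difference was -0.95 ± 0.81 (adjusted p = 0.460), and -2.71 without replicate 3 of Kit-K5+ (adjusted p = 0.0394). Exons of Gfra1 share 416 bases with the antisense gene Gm16277, whose reads cannot be told apart without the strand setting.

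The co-receptors and Ret were present in unequal amounts. Among Kit-K5- cells Gfra2 averaged 37.4 ± 13.2 RPKM, Gfra1 2.54 ± 0.613 RPKM and Ret 1.10 ± 0.221 RPKM (SD, n = 3). Within single libraries, Gfra2 exceeded Ret per exon length by 19.1, 38.2 and 6.88 times in Kit+K5+, 5.93, 4.78 and 3.55 times in Kit+K5-, 15.9, 9.55 and 7.64 times in Kit-K5+ and 35.8, 56.1 and 17.6 times among Kit-K5- cells. The Kit-K5- and Kit+K5+ ranges overlapped. Gfra2 stood above Gfra1 in all Kit+ and all Kit-K5- libraries, and in Kit-K5+ cells the ratio was 1.68, 0.774 and 0.202.

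**Figure D3:**
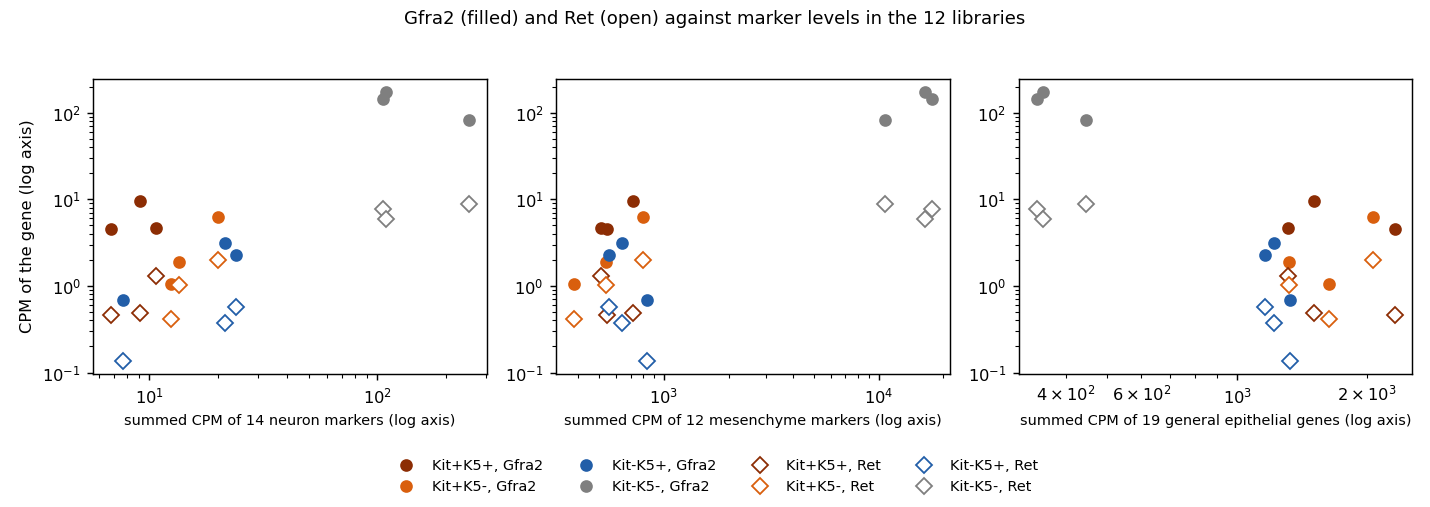
Levels of Gfra2 (filled) and Ret (open) in CPM (vertical axis, log scale) against the summed CPM of 14 parasympathetic neuron markers, 12 mesenchyme markers and 19 general epithelial genes (horizontal axes, log scale), with a point for each library. The 3 Kit-K5- libraries are apart from the other 9 on all of the axes, so that level and marker sums cannot be told apart between groups.

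Vip encodes vasoactive intestinal peptide and lies at chr10:5639218-5647617 on the forward strand. It had 79 reads in all, with 4, 10 and 10 of them in the Kit+K5+, Kit+K5- and Kit-K5+ groups, against 55 in the Kit-K5- group. Its levels were 0.368, 0 and 0 CPM for Kit+K5+, 0.737, 0 and 0.435 CPM for Kit+K5-, 0.125, 0.274 and 1.33 CPM for Kit-K5+, against 1.11, 0.611 and 3.05 CPM for Kit-K5- cells. A count of 0 allows up to 0.288 CPM in replicate 2 and 0.386 CPM in replicate 3 of Kit+K5+, and 0.315 CPM in replicate 2 of Kit+K5-. The Kit+K5+ libraries were all below the Kit-K5- libraries, as for 24.6% of all genes, but the difference of -3.47 ± 1.46 missed the threshold (adjusted p = 0.0965). Against Kit-K5- cells the values were -1.50 ± 1.33 in Kit-K5+ (adjusted p = 0.482) and -1.98 ± 1.34 in Kit+K5- cells (adjusted p = 0.326).

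Vipr1, a Gs-coupled receptor of this peptide, lies at chr9:121642716-121672954 on the forward strand and was detected in all 12 libraries. Its levels were 9.74, 2.69 and 5.41 CPM for Kit+K5+, 12.3, 3.99 and 3.77 CPM for Kit+K5-, 7.60, 2.46 and 1.14 CPM for Kit-K5+, against 7.97, 1.91 and 3.05 CPM for Kit-K5- cells. In each group replicate 1 was the highest, and the groups overlapped throughout. The differences from Kit-K5- cells were -0.19 ± 0.77 in Kit-K5+ (interval -1.96 to 1.57, adjusted p = 0.895), 0.63 ± 0.76 in Kit+K5- (interval -1.11 to 2.38, adjusted p = 0.602) and 0.46 ± 0.76 in Kit+K5+ cells (adjusted p = 0.697). These intervals hold differences of up to 2.38 on the log2 scale, so that a like level in the 4 groups is not shown. With scaling to the epithelial genes, under which 66.2%, 75% and 78.9% of all genes were called lower for Kit-K5+, Kit+K5- and Kit+K5+ against Kit-K5-, Vipr1 was among them, at -1.95 for Kit-K5+ (adjusted p = 0.0288), -1.65 for Kit+K5- (0.0493) and -1.81 for Kit+K5+ (0.0319), and the sign of the last 2 had turned. For Kit-K5+ so were Gfra1 (-2.58, adjusted p = 0.00847), Gdnf (-3.18, adjusted p = 0.0436) and Vip (-3.08, adjusted p = 0.0436), and for Kit+K5+ so were Gdnf (-3.92, adjusted p = 0.0138) and Vip (-5.68, adjusted p = 0.00196). For Kit+K5- so was Vip (-4.06, adjusted p = 0.0110). With most genes called lower, nothing is read from these calls.

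Upstream sequence is shown for the receptor, the ligand and the peptide whose mean levels ran in opposite directions, Chrm3 and Nrtn with their lowest mean in Kit-K5- cells and Vip with its highest there. RefSeq promoter windows on GRCm38.p6 matched 5 of the 9 genes (Chrm3, Nrtn, Gdnf, Vip and Vipr1). The bases shown lie upstream of all annotated exons of the gene, read 5′ to 3′ on the strand of the gene: chr13:10360848-10361053 (reverse) for Chrm3, chr17:56757549-56757798 (reverse) for Nrtn and chr10:5638968-5639217 (forward) for Vip. Capitals mark matches to the motifs searched on both strands, which were the cAMP response element TGACGTCA, its core TGACG, the GC box GGGCGG and the TATA box TATAAA.
Chrm3: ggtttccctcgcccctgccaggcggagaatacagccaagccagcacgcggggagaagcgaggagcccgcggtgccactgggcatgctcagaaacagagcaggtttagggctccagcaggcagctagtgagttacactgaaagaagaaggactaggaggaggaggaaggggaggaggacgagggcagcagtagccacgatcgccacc
Nrtn: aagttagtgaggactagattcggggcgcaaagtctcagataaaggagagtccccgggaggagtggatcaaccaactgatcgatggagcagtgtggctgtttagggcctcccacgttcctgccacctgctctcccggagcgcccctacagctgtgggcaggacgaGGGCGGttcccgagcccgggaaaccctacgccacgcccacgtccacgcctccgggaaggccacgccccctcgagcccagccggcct
Vip: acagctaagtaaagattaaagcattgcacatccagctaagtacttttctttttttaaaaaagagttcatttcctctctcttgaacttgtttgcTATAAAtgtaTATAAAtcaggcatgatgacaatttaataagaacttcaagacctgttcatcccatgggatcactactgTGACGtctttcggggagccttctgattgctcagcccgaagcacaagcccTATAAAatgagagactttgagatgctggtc
The Chrm3 window of 206 bases, at -250 to -45, was 62.1% G or C and held no match. Its bases nearer to the start, where an annotated exon lies, were left out and not searched. The Nrtn window of 250 bases was 64.8% G or C and held 1 GC box at bases -86 to -81, counted from the annotated start, a motif in 32.7% of all 32851 windows of 250 bases. The Vip window was 38.4% G or C, against a median of 52.4%, and held TGACG at -79 to -75, present in 17.8% of windows, and TATAAA at 3 places, of which the nearest was at -30 to -25, present in 12.4%. A match describes letters and not a bound site, and no match says only that these letters are not in the window.

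The other acetylcholine genes were mostly near the limit of detection. Of 8 listed, 6 were measured. In Kit-K5+ against Kit-K5- cells 1 was lower, Ache, which encodes acetylcholinesterase (log2 difference -2.44, adjusted p = 0.0426), and in Kit+K5- against Kit-K5- cells 1 was lower, Chrm2, a Gi-coupled muscarinic receptor (-5.61, adjusted p = 0.00587). Chat, which encodes the enzyme that makes acetylcholine, averaged 0.0641, 0.456 and 1.24 CPM for Kit+K5+, Kit+K5- and Kit-K5+, against 0.147 CPM in Kit-K5- cells. The median log2 difference of these 6 was -0.61 for Kit-K5+ and -0.93 for Kit+K5-, where that of all genes was 0.04 and 0.05. The 16 genes of Gq signalling, through which Chrm1 and Chrm3 act, were all measured and did not move one way. In Kit-K5+ against Kit-K5- cells Gnaq, the Gq subunit, was higher by 0.78 (adjusted p = 0.0209), while Prkca (-1.47, adjusted p = 0.00364), Gna11 (-0.91, adjusted p = 0.0269) and Itpr2 (-1.40, adjusted p = 0.0324) were lower. In Kit+K5- against Kit-K5- cells Ano1, the calcium-activated chloride channel of secretory cells, was higher by 2.34 (adjusted p = 7.23e-04) and Plcb4 by 1.02 (adjusted p = 0.00774), and Plcb1 and Trpc1 were lower. The median of the list was -0.56 for Kit-K5+ and 0.01 for Kit+K5- against Kit-K5- cells. In these comparisons 7.38% and 10.2% of all genes were higher, and 9.1% and 11.1% lower.

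Of the other genes of the GDNF family and its receptors, 5 of 8 were measured, and 2 were lower against Kit-K5- cells, both for Kit-K5+ and for Kit+K5-. The shares of all genes that were lower there were 9.1% and 11.1%. Ncam1, an alternative receptor for this family, averaged 9.42, 11.8 and 14.6 CPM for Kit+K5+, Kit+K5- and Kit-K5+ cells and 101.2 CPM in Kit-K5- cells (-2.78 in Kit-K5+, adjusted p = 7.89e-04, and -3.10 in Kit+K5-, adjusted p = 2.71e-04). Sdc3, a heparan sulfate carrier that binds these ligands, averaged 23.0, 16.1 and 19.9 CPM, and 60.6 CPM in Kit-K5- cells. Gfra4, the persephin co-receptor, averaged 7.52, 3.33 and 7.24 CPM, and 3.12 CPM in Kit-K5- cells, with no call. The 5 had a median of -1.61 for Kit-K5+ and -0.66 for Kit+K5-. The 15 adaptors and known targets of RET signalling, taken from kidney work, moved both ways. In Kit-K5+ against Kit-K5- cells 3 were higher (Dusp6 by 1.09, Etv4 by 1.47 and Grb7 by 1.53) and 2 lower (Spry4 at -2.72 and Shc1 at -0.95), and in Kit+K5- against Kit-K5- cells 5 were higher and 3 lower. For all genes, 7.38% were higher and 9.1% lower in the first comparison, and 10.2% and 11.1% in the second. Their median was 0.08 for Kit-K5+ and -0.22 for Kit+K5-, while the receptor Ret itself was lower in both comparisons. Spry4, an inhibitor of receptor tyrosine kinase signals, averaged 37.0, 41.0 and 26.8 CPM for Kit+K5+, Kit+K5- and Kit-K5+, against 176 CPM in Kit-K5- cells, and Etv4, a transcription factor, 30.8, 41.4 and 29.7 CPM, against 10.7 CPM.

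Among the relatives of Vip and Vipr1, 10 of 13 were measured, and those called were all lower, 3 for Kit-K5+ against Kit-K5- and 4 for Kit+K5- against Kit-K5-, where 9.1% and 11.1% of all genes were lower. With the block on runs these counts were 5 and 6, where 12.8% and 14.9% of all genes were lower. With the block, 6 of the 16 Gq genes were lower and 2 higher for Kit-K5+ against Kit-K5-. Of the 15 RET signalling genes 4 were lower and 4 higher, where 2186 of all 17030 genes were lower and 1872 higher. The medians of the Vip relatives were -0.92 and -0.85. The receptor Adcyap1r1, which binds the related peptide PACAP, averaged 4.72, 2.52 and 4.20 CPM for Kit+K5+, Kit+K5- and Kit-K5+ cells and 128 CPM in Kit-K5- cells (-4.97 in Kit-K5+, adjusted p = 6.87e-05, and -5.66 in Kit+K5-, adjusted p = 1.97e-05). Its interaction of Kit and K5 was 5.85 (adjusted p = 5.09e-04). Vipr2, the other receptor of the peptide, averaged 5.70, 5.97 and 6.58 CPM for Kit+K5+, Kit+K5- and Kit-K5+, against 7.64 CPM in Kit-K5- cells, with no call. Adcy5 and Adcy6, adenylate cyclases that act below Gs, were highest in Kit-K5- cells at 14.4 and 88.3 CPM, with Adcy6 lower in Kit-K5+ (-1.30, adjusted p = 0.0390) and Adcy5 lower in Kit+K5- (-3.19, adjusted p = 0.00661).

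Like Gfra2 and Ret, most neuron markers were lower in the other groups than in Kit-K5- cells. Within Kit-K5- cells the neuron marker sums were 106, 110 and 253 CPM in replicates 1, 2 and 3. In the same order, Gfra2 was at 143, 172 and 81.3 CPM and Ret at 7.65, 5.88 and 8.85 CPM. The mesenchyme sums there were 17659, 16505 and 10683 CPM. Against Kit-K5- cells, 9 of the 13 neuron markers measured were lower for Kit-K5+, 9 for Kit+K5- and 11 for Kit+K5+ cells. In these comparisons 9.1%, 11.1% and 14.5% of all genes were lower. Hand2, a transcription factor of autonomic neurons, averaged 0.236, 0.210 and 0.0635 CPM for Kit+K5+, Kit+K5- and Kit-K5+, against 7.30 CPM for Kit-K5- cells. None of the 14 was at 0 in all 3 libraries of any group. Of the mesenchyme markers 11, 12 and 12 of 12 were lower for Kit-K5+, Kit+K5- and Kit+K5+ against Kit-K5-, and 0 of the 12 differed among the other groups. Of 8 Schwann cell and glia markers, 7 were measured and 2, 0 and 2 were lower. Their sums were 39.7 to 47.1, 43.0 to 107, and 24.8 to 32.8 CPM in Kit+K5+, Kit+K5- and Kit-K5+, against 57.4 to 107 CPM in Kit-K5- cells. Of 8 endothelial markers, 6 were measured and 0, 2 and 2 were lower. Of the general epithelial genes, 7, 16 and 17 of 19 were higher than in Kit-K5- cells, as were Chrm1 in 2 and Chrm3 in all 3 of these comparisons. The shares of all genes that were higher there were 7.38%, 10.2% and 12.2%. Mast cell markers summed to 4943, 224 and 127 CPM in replicates 1, 2 and 3 of Kit+K5-, against 2.74 to 46.7 CPM in the other groups. Replicate 1, without which the Gfra2, Ret and Gfra1 differences of that group moved, was also the highest of the 3 in leukocyte markers (530, 97.3 and 89.1 CPM) and in glia markers (107, 55.9 and 43.0 CPM). The 12 leukocyte and macrophage markers summed to 51.0 to 530 CPM in the other groups and 213 to 1293 CPM in Kit-K5- cells. The part of these markers in the differences of the 9 genes was not tested.

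**Figure D4:**
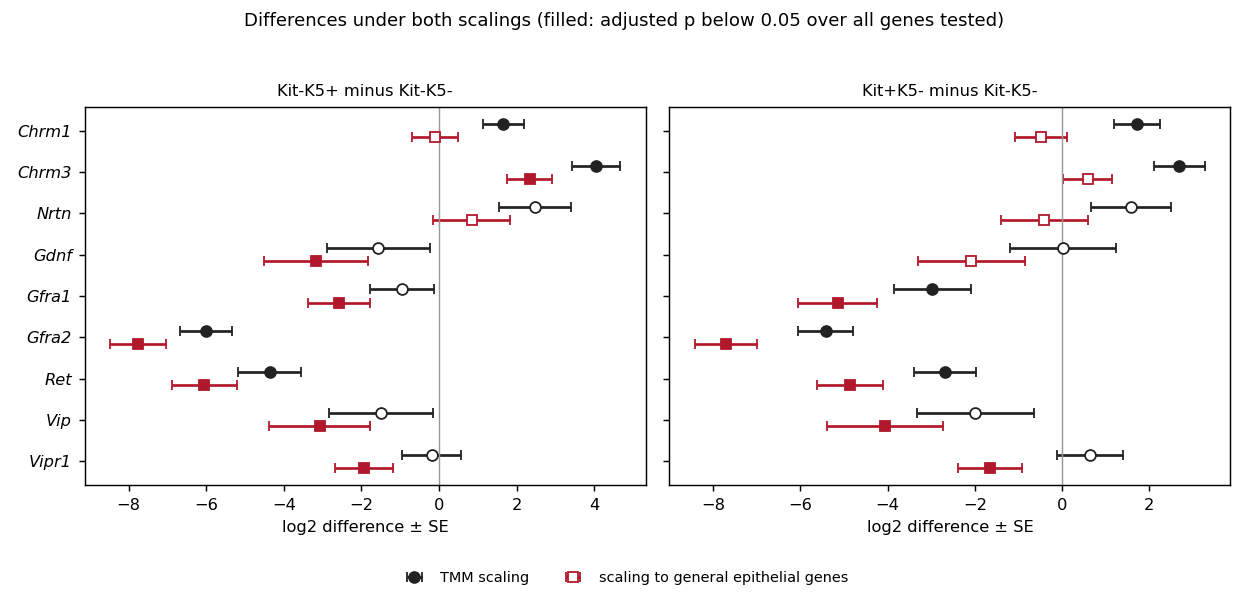
Log2 differences of the 9 genes for Kit-K5+ minus Kit-K5- and Kit+K5- minus Kit-K5- (horizontal axis) with TMM scaling (black) and with scaling to 19 general epithelial genes (red). Gfra2 and Ret stay below 0 and Chrm3 above 0 under both, while Chrm1 changes sign. The epithelial scaling moved the median of all genes to -1.67 and -2.06, and 66.2% and 75% of them were called lower. Nothing is therefore read from values that stay below 0. Under it Chrm1 did not pass in either panel, nor did Chrm3 for Kit+K5-. Bars give ± SE, and filled points have an adjusted p under 0.05.

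Some pairs of the 9 genes ran together over the 12 libraries. The values are correlations of log2 CPM, given as a description, as the libraries share their groups, the makeup of the Kit-K5- cells and their depth. Gfra2 and Ret had a Pearson correlation of 0.91, which was 0.53 over the 9 libraries outside Kit-K5-. Chrm1 and Chrm3 had 0.83 and 0.59 over those 9, Chrm3 and Nrtn 0.74 and 0.61, and Gfra1 and Vip 0.83 and 0.73. Gdnf and Vipr1 reached at most 0.46 (with Vip) and 0.51 (with Chrm1). Chrm3 and Ret ran opposite at -0.86, and at -0.38 over those 9. Nrtn and Ret ran opposite at -0.79, and at -0.73 over those 9, where both had few reads. Among 10572 genes of sufficient level, the closest to Chrm3 were Atxn1 (0.955), Fxyd3 (0.953) and Itga6 (0.952), a laminin-binding integrin of basal epithelium that averaged 502, 361 and 854 CPM for Kit+K5+, Kit+K5- and Kit-K5+, against 123 CPM in Kit-K5- cells. The closest to Chrm1 were Atp13a4 (0.913), Fam129b (0.882) and again Fxyd3 (0.880), and to Nrtn Ppdpf (0.953), Igfbp2 (0.938) and Plxnb1 (0.923). Closest to Gfra2 were the matrix gene Emilin1 (0.983), Chst2 (0.973) and Kctd12 (0.971), to Ret Med12 (0.966), the enkephalin precursor Penk (0.962) and Shank3 (0.962), and to Gfra1 the semaphorin co-receptor Plxna4 (0.947), Cttnbp2 (0.943) and Mdga2 (0.935). For Vip they were Jarid2 (0.923), Fosb (0.919) and Trim2 (0.909), for Vipr1 Uap1 (0.909), Ppp6r1 (0.894) and Rabgef1 (0.883), and for Gdnf Ecm1 (0.800), Nrip2 (0.732) and Ndufaf7 (0.728).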

How the data were processed

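The authors deposited counts, whole numbers per gene without normalization, for 12 libraries. Per the labels' protocols, single-ended reads of 50 nt were aligned by STAR 2.4.2a (GRCm38) and assigned to genes by featureCounts. The submitters' processing notes also name FastQC, Picard 1.129, featureCounts 1.4.6-p3 and the build GRCm38.p3. No source used here states the annotation release or the strand setting. The joint matrix and the table of each library disagreed in 0 cells. Gene positions and exon lengths came from GENCODE M21, which held 39469 of the 43280 symbols.

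R 4.3.3, edgeR 4.0.16 and limma 3.58.1 were used. Genes passing filterByExpr (minimum count 10) entered a single quasi-likelihood fit with TMM scaling and 1 coefficient for each of the 4 groups, with 8 residual degrees of freedom and a common biological coefficient of variation of 0.437. The 6 pairwise differences and the interaction were tested with glmQLFTest, with Benjamini-Hochberg adjustment over the 17030 genes. Standard errors follow from the F statistic, and intervals are at 95% with the 8 residual degrees of freedom. Library totals set the counting error: 1 read was worth 0.0654 to 0.191 CPM. Limits for counts of 0 cover counting error only, while the intervals of differences include the spread between libraries.

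Library numbers ran in 3 runs of 4 (1 to 4, 5 to 8 and 9 to 12) with a library of each group in each. The labels do not say what a run is. Deviations from group means correlated between libraries of a run by 0.108 to 0.408 in the 5 comparisons in which every pair was over 0.1, and by 0.0928 to 0.365 for Kit+K5- against Kit-K5+, so runs were used as a block in an alternative. Other alternatives were DESeq2 1.42.0, limma-voom, other scalings, other filters on low counts, only the groups compared, and leaving out each library or run. The members and gene lists were chosen with earlier results of these data known. Named genes were the 9 members, for each list up to 4 called genes with the smallest adjusted p or up to 2 of the highest level, and the 3 genes most correlated with each member among those with a mean of at least 5 CPM (log2 with a prior count of 2). Chat, Gfra4, Vipr2 and Shc1 were named outside this rule, after their values were seen.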

Additional observations from a re-analysis of the deposited data

Results flagged for a closer look

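The K5 difference of Chrm3 differed between Kit+ and Kit- cells. Chrm3 averaged 23.6 CPM in Kit+K5+ against 19.1 CPM in Kit+K5- cells, and 49.1 CPM in Kit-K5+ against 2.96 CPM in Kit-K5- cells, and the interaction was -3.75 on the log2 scale (edgeR, adjusted p = 0.0171). The K5 difference of Gfra2 also differed by Kit. Gfra2 averaged 6.28 CPM in Kit+K5+ against 3.05 CPM in Kit+K5- cells, and 2.03 CPM in Kit-K5+ against 132 CPM in Kit-K5- cells, and the interaction was 7.04 (edgeR, adjusted p = 3.39e-04). Both involve the Kit-K5- libraries, whose neuron, mesenchyme and epithelial markers differ from the others, and the part of these was not tested. In the same interaction 5 of the 19 general epithelial genes were negative and 9 of the 12 mesenchyme markers positive. The shares of all genes were 1.21% negative and 2.81% positive. Groups of 3 libraries were not checked for outlying samples.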

How the results depend on the processing

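The numbers of the 9 genes called changed as follows. For the interaction, 2 in the fit reported became 1 in limma-voom, 1 without library numbers 5 to 8, 3 with the replicate block on runs of library numbers, in DESeq2, with no filter and with scaling to general epithelial genes, and 1 to 3 when single libraries were left out. All genes called positive and negative numbered 478 and 206 in the fit reported, 395 and 152 in limma-voom and 803 and 608 in DESeq2. They numbered 80 and 7 of 17847 without library numbers 5 to 8, and 371 to 729 in all without single libraries. For Kit-K5+ against Kit-K5-, 4 became 7 with the epithelial scaling, 5 in DESeq2 (Nrtn gained), 3 in limma-voom, with only the groups compared and without each run, and 3 to 5 without single libraries. Of all genes, those called higher and lower here numbered 1256 and 1550, 1778 and 2006 in DESeq2 and 1266 and 1742 in limma-voom. Without numbers 1 to 4, 5 to 8 and 9 to 12 they numbered 699 and 992, 145 and 403, and 666 and 1044. Without single libraries they numbered 1362 to 3157 in all. For Kit+K5- against Kit-K5-, 5 became 1 without library numbers 5 to 8, 2 without numbers 9 to 12 and 2 to 5 without single libraries. With the epithelial scaling that count stayed at 5, but Chrm1 and Chrm3 were lost and Vip and Vipr1 gained. All genes called higher and lower in this comparison fell from 1729 and 1895 of 17030 to 245 and 604 of 17847 without numbers 5 to 8. They numbered 1007 and 1219 without numbers 9 to 12, and 2122 to 3754 in all without single libraries. For Kit+K5+ against Kit-K5-, 4 became 2 without library numbers 5 to 8, 3 without numbers 1 to 4, 6 with the epithelial scaling (Chrm3 lost), 5 with the block or no filter (Chrm1 gained) and 4 to 5 without single libraries. Calls over all genes there, higher and lower, numbered 2073 and 2467 in the fit reported. They numbered 629 and 1063 without numbers 5 to 8, and 1335 and 1523 without numbers 1 to 4. For Kit+K5+ against Kit-K5+, 0 became 1 in DESeq2 and 2 with no filter on low counts, and for Kit+K5- against Kit-K5+, 0 became 2 with no filter. Both these and Kit+K5+ against Kit+K5- kept 0 without any single library. With no filter, 468 of 36398 genes were higher and 744 lower for Kit+K5+ against Kit-K5+. For Kit+K5- against Kit-K5+ they numbered 819 and 553. The block changed no other call of the 9 genes. Chrm1 turned to -0.12, -0.49 and -0.81 with scaling to epithelial genes, against Kit-K5- cells, in Kit-K5+, Kit+K5- and Kit+K5+. Causes were not tested, save that leaving out a run leaves 2 libraries a group.

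A set of 22 differences, each past the threshold in at least 1 fit, gave 542 values. Of these, 481 kept direction and side of the threshold, 43 lost the call, 15 gained it and 3 turned. Of 980 values of the other 41 differences, 897 kept both, 9 gained a call and 74 turned, in 23 differences. Passing does not set the 22 apart, as 10 of the 41 also passed in at least 1 fit. These 41 include differences also given above, such as those of Vipr1 from Kit-K5- cells. Over all genes, calls numbered 684 for the interaction (547 to 1960 over the alternatives with all libraries, other than the epithelial scaling), 2806 for Kit-K5+ against Kit-K5- (2767 to 4058), 3624 for Kit+K5- against Kit-K5- (3589 to 4977), 4540 for Kit+K5+ against Kit-K5- (4166 to 5843), 112 for Kit+K5+ against Kit-K5+ (58 to 1212), 454 for Kit+K5- against Kit-K5+ (60 to 1372) and 0 for Kit+K5+ against Kit+K5- (0 to 318). With epithelial scaling they numbered 8062, 11402, 12814, 13467, 241, 190 and 35 in that order. Of the calls, 44.8% for Kit-K5+ against Kit-K5- and 47.7% for Kit+K5- against Kit-K5- were higher, which became 54.4% and 53.0% with upper-quartile and 1.18% and 0.289% with epithelial scaling. Depth limits Vip, Gdnf and Nrtn.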

Other observations

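All 8 neurotrophins and receptors listed were measured. For Kit-K5+ against Kit-K5-, 3 were higher and 3 lower, with a median of 1.84 over the 8, against 0.04 over all genes. The shares of all genes higher and lower there were 7.38% and 9.1%. Ntrk3, a neurotrophin receptor, averaged 305 CPM in Kit-K5+ cells against 65.5 CPM in Kit-K5- cells (2.22, adjusted p = 0.0132). Ntrk2, another, averaged 37.0 CPM in Kit-K5+ cells against 230.1 CPM in Kit-K5- cells (-2.63, adjusted p = 4.89e-04).

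Egfr, the receptor through which muscarinic signals act on keratin 5 cells in cultured glands, averaged 93.8 ± 35.9 CPM for Kit+K5+, 59.4 ± 26.9 CPM for Kit+K5- and 291 ± 17.5 CPM for Kit-K5+, against 125 ± 8.99 CPM for Kit-K5- cells (SD, n = 3). Its log2 difference was -1.63 for Kit+K5+ against Kit-K5+ (adjusted p = 0.0407) and 1.22 for Kit-K5+ against Kit-K5- (adjusted p = 0.0192). The basal keratin genes Krt14 and Krt15 were higher for Kit-K5+ against Kit-K5- by 2.92 (adjusted p = 0.0218) and 2.65 (adjusted p = 0.0168). Of 14 other transmitter and neuropeptide receptors 8 were measured, and Adra2a, an adrenergic receptor, and Calcrl, a receptor of calcitonin gene-related peptide and adrenomedullin, were lower for Kit-K5+ against Kit-K5- (-3.54, adjusted p = 0.00179, and -1.71, adjusted p = 0.0188). The share of all genes that were lower there was 9.1%.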
